A study of Mus musculus with 13 samples.

Results

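The Shh domain is a stretch of mouse chromosome 5 that holds Shh and, far from it, the limb enhancer that drives the gene in the limb bud. Its members were all peaks of 11 ChIP-seq peak lists between 28.2 and 29.8 Mb of build mm10, an interval fixed by place and not by any measured value. They number 208 of 457888 peaks and fall into 56 sites when overlapping peaks are joined. The interval spans Shh (28456815 to 28467256, minus strand), Rnf32 (29195992 to 29228457, plus strand), Lmbr1 (29229802 to 29378390, minus strand), Nom1 (29434664 to 29457843, plus strand) and Mnx1 (29473034 to 29478470, minus strand), in GENCODE release M21.

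All tissue came from mouse embryos at stage E12.5, and each group had 1 library. The CTCF deletion groups were homozygous for delHoxd(8-13)d11lac, delHoxd(1-13)d9lac, delHoxd(attP-rel5)d9lac or delHoxd(8-13)rXII, named below del(8-13)d11lac, del(1-13)d9lac, del(attP-Rel5)d9lac and del(8-13)rXII, and were set against wild-type CTCF; all were of strain B6CBAF1. A RAD21 library of del(8-13)rXII, sequenced more than once per the labels, was likewise set against wild-type RAD21 of that strain. These libraries used whole forelimbs and hindlimbs, except the CTCF library of del(8-13)rXII, which was made by ChIPmentation from the whole forelimbs of 4 pooled embryos. Per the labels, heterozygous mice were crossed to obtain homozygous and wild-type embryos. Wild-type CD1 forelimbs were split into a distal part (SMC1, RAD21 and CTCF) and a proximal part (CTCF). The alleles are named for Hoxd, whose gene cluster lies on chromosome 2, and the extent of the attP-rel5 deletion is not given here. As far as the labels say, the sequence of the Shh domain is the same in every allele. Peak lists of CTCF and cohesin hold no markers of tissue, so the dissected tissue could not be checked against them.

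Sonic hedgehog, the secreted signal encoded by Shh, is made by a small group of mesenchymal cells at the posterior edge of the limb bud, the zone of polarizing activity, and sets the number and identity of digits. Its expression there depends on an enhancer known as the ZPA regulatory sequence, which lies inside an intron of the neighbouring gene Lmbr1 and acts across a gene-poor desert. CTCF recognises an asymmetric DNA motif through its zinc fingers and stalls cohesin, the ring complex that contains SMC1 and RAD21 and extrudes chromatin loops. Loops are most often anchored at pairs of CTCF motifs that point toward each other, so the strand of a motif is given with each site. Contacts between sites were not measured in these libraries.

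A site is called by its place below. The −log10 q of a peak is the authors' peak caller's measure of how far its reads exceed the local background. It depends on sequencing depth, which is unknown, so strength is read from the rank within a list. Values of different lists are printed side by side, but a difference between them is not read as a difference in binding. A peak at percentile 99 has a higher −log10 q than 99% of the peaks of its own list. That limit holds for every value that follows.

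Of the 56 sites, 12 had a peak in all 7 CTCF lists (21.4%, Wilson 95% interval 12.7 to 33.8), against 27% of 105994 sites grouped in the same way over the genome, so that the domain did not differ detectably in this share. The 12 are described first. Every one held a match to the CTCF motif within 50 bp of its summit. The matrix of 19 positions was learnt from the 2000 strongest whole-limb peaks of the genome, and a match had to score at least 6.53 bits, a level that 5% of control windows passed. Those peaks include the sites between Cnpy1 and Rbm33, downstream of Shh, in Lmbr1 intron 5 and in 4632411P08Rik, whose matches are thus not independent of the matrix. The share with a match among genome sites in all 7 CTCF lists was not computed. The 12 matches, and the one under the limb enhancer peak, are printed from the genome (GRCm38.p6) because their strand and letters tell the sites apart. Each is read 5′ to 3′ on the strand given, with positions 3 to 16 of the matrix, its core, in capitals.
Site between Cnpy1 and Rbm33, plus strand, chr5:28294186-28294204: gaCCAGCAGGTGGCGCcat
Site in an Rbm33 intron, minus strand, chr5:28388391-28388409: taCCAGCAGAGGGCGCaca
Shh downstream site, plus strand, chr5:28451369-28451387: ggCCACCAGAGGGCGCtcg
Shh upstream site, minus strand, chr5:28469944-28469962: ggCCAGAAGGGGGAAGggg
Desert site, minus strand, chr5:29036838-29036856: ggGCACCAGAGGGCGCcaa
Lmbr1 intron 5 site, minus strand, chr5:29293392-29293410: ggCCACTAGAGGACTCcag
Limb enhancer site, minus strand, chr5:29314808-29314826: ccCCACTAGGGAGCACtgg
Lmbr1 intron 4 site, minus strand, chr5:29336033-29336051: taCCAGCAGGTGGCAGtag
Site in 4632411P08Rik, plus strand, chr5:29389561-29389579: caCCGCTAGGGGGCGCgag
Site between Lmbr1 and Nom1, plus strand, chr5:29413221-29413239: tgTCAGCAGAGGGCAGaat
Mnx1 upstream site, minus strand, chr5:29479475-29479493: ggCCGGCAGGAGGAGGcga
Ube3c upstream site, plus strand, chr5:29560847-29560865: ggCCAGAAGAGGGCACtgg
Site between Ube3c and Dnajb6, minus strand, chr5:29687866-29687884: ggCCACTAGGTGGCAAaat

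The strands are given along the domain, and their order was not set against the genome. The motif of the Shh downstream site lay on the plus strand, and the next motifs toward Lmbr1 that were bound in every CTCF list, at the Shh upstream, desert, Lmbr1 intron 5 and Lmbr1 intron 4 sites, all lay on the minus strand. Each of these 4 therefore faced the Shh downstream motif, and also the plus-strand motif of the site between Cnpy1 and Rbm33. Distances of the 4 from the Shh downstream site were 18.6, 585, 842 and 885 kb. The limb enhancer stood between the last 2 of them, 21.1 kb from the intron 5 site and 20.2 kb from the intron 4 site. Beyond Lmbr1 the motifs of the 4632411P08Rik site and of the site between Lmbr1 and Nom1 lay on the plus strand and so pointed away from Shh. Of all 12, 5 were on the plus and 7 on the minus strand. The highest score belonged to the Shh downstream motif, at 25.9 bits, and the lowest to the Mnx1 upstream motif, at 13.6 bits. The median score was 19.5 bits at the 12, against 14.1 bits at the 12 motifs among the other 44 sites. The score threshold was exceeded by 79.2% of the 43533 whole-limb peaks of the genome.

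**Figure D1:**
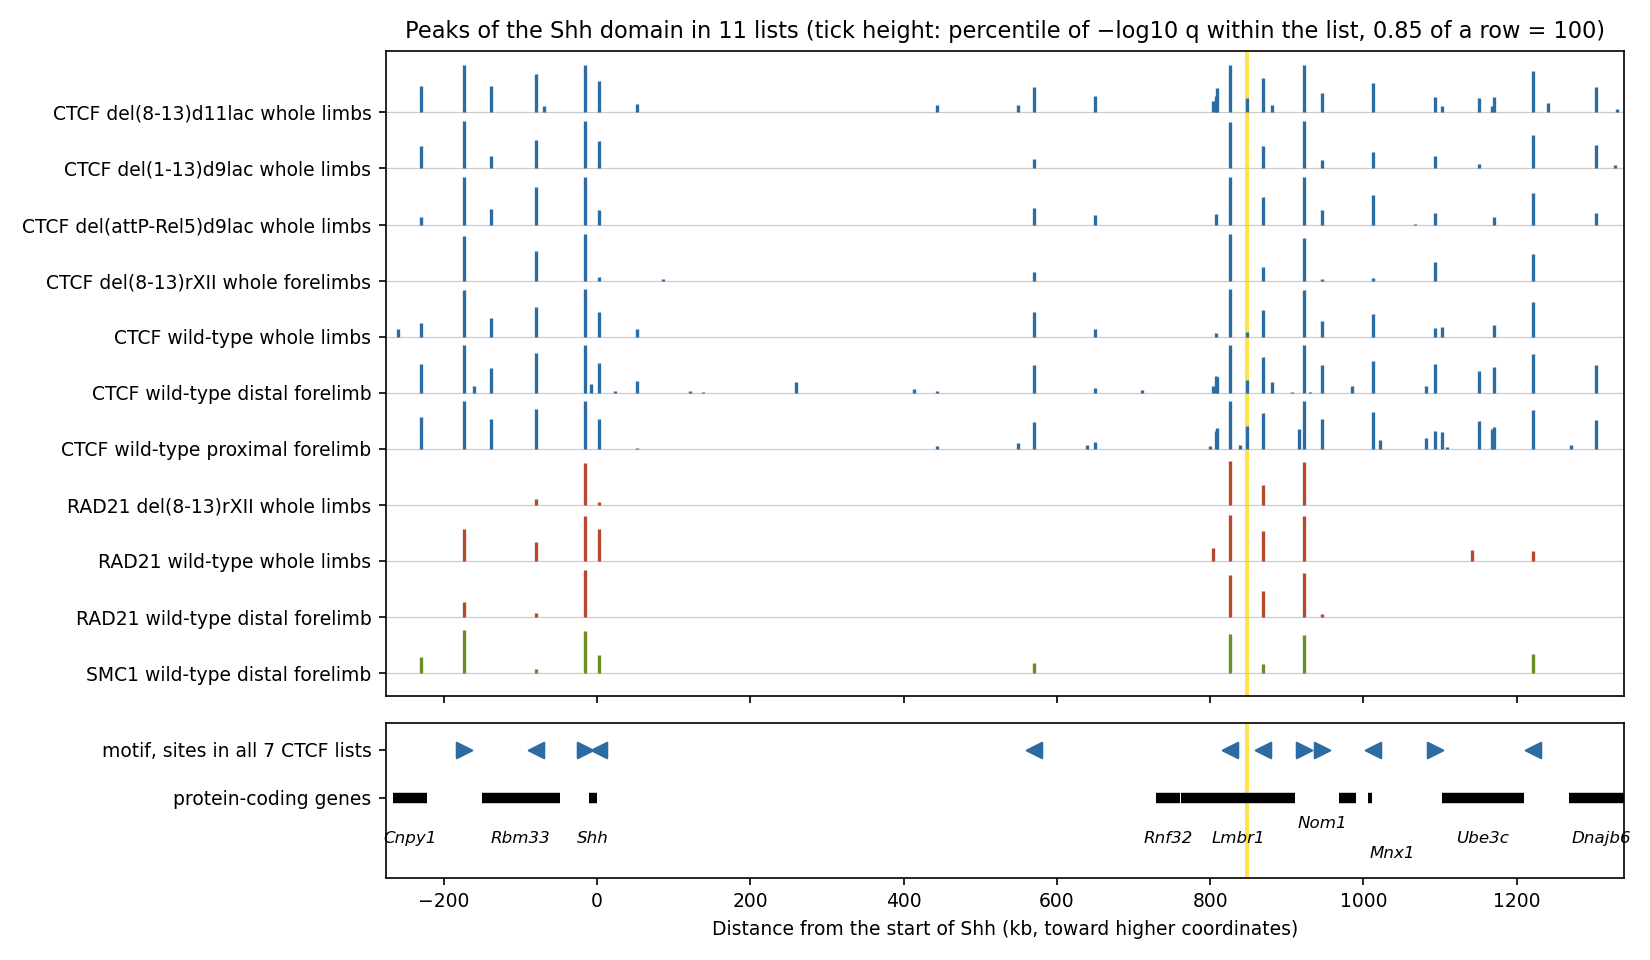
Peaks of the Shh domain in each of the 11 lists (rows), by distance from the start of Shh in kb; the height of a tick is the percentile of the peak's −log10 q within its own list. Arrowheads below show the motif strand of the 12 sites with a peak in all 7 CTCF lists, black bars the protein-coding genes and the yellow line the limb enhancer, 847 kb from the start of Shh. The 4 tallest CTCF ticks stand at the same 4 places in all 7 CTCF lists, and the stretch between Shh and Rnf32 has cohesin peaks at 2 of its 14 sites.

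Shh itself was flanked by 2 CTCF sites, both bound in every CTCF list, and neither covered its start. The Shh downstream site (28451073 to 28451817) was intergenic, past the 3′ end of the gene and 15.9 kb from its start. Its CTCF −log10 q was 264 in del(8-13)d11lac, 150 in del(1-13)d9lac, 180 in del(attP-Rel5)d9lac and 28.4 in del(8-13)rXII, against 164 in wild-type whole limbs, and it was 280 in distal and 281 in proximal wild-type forelimb. Within each list these values reached percentiles of 98.5 to 99.8, so this was among the strongest CTCF peaks of the genome in every library. Its RAD21 −log10 q was 39.1 in del(8-13)rXII, against 115 in wild-type whole limbs, and 74.6 in wild-type distal forelimb, where SMC1 stood at 32.7. All 4 cohesin lists thus had a peak here, at percentiles from 87 to 97.8.

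The Shh upstream site (28469476 to 28470180) lay 2715 bp upstream of the start of Shh, inside the long noncoding transcripts 9530036O11Rik and Gm26894. It was much weaker than the downstream site in every list. Its CTCF −log10 q was 63.8 in del(8-13)d11lac, 21.4 in del(1-13)d9lac, 10.8 in del(attP-Rel5)d9lac and 2.37 in del(8-13)rXII, against 18.7 in wild-type whole limbs, and it was 44.3 in distal and 40.4 in proximal wild-type forelimb. Cohesin was not called alike there across libraries: RAD21 was at 3.78 in del(8-13)rXII, against 30.7 in wild-type whole limbs, SMC1 was at 8.23 in wild-type distal forelimb, and RAD21 had no peak in wild-type distal forelimb. Of the 2602 whole-limb RAD21 peaks of the genome within a factor of 1.2 of its −log10 q, 83.5% had a peak in the distal RAD21 list. Read from the distal lists, the share was lower: 15% of the 4688 distal CTCF peaks of like −log10 q and 52.4% of the 3294 like SMC1 peaks had a distal RAD21 peak.

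Inside the gene there was 1 peak, in intron 2 of Shh (28458988 to 28459217), called in wild-type distal forelimb CTCF alone at a −log10 q of 5.63. It overlapped an interval that RefSeq annotates as a brain enhancer region of Shh. Of the 11 distal elements that RefSeq lists for Shh in the domain, 2 were overlapped by a site, this one and the limb enhancer, and 9 were not. The first floor plate enhancer lay 5.91 kb from the nearest site, the one upstream of Shh. For brain enhancer 2 it was 3.5 kb, to a peak of distal CTCF alone at 3.42. The lung-gut enhancer lay 8.94 kb from a peak of del(8-13)rXII CTCF alone at 1.96, and 92.5 kb from the nearest site in all 7 CTCF lists.

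The desert between the start of Shh and Rnf32, 729 kb long, held 14 sites. Of these, 8 had a peak in a single list, against 37.1% of sites in the genome, and 2 had cohesin. Only the Shh upstream site and the desert site (29036582 to 29037183) had a peak in all 7 CTCF lists there, and these were the 2 with cohesin. Over the genome, 77.1% of sites in all 7 CTCF lists and 21.3% of the others had cohesin. The desert site, 570 kb from the start of Shh, had a CTCF −log10 q of 37.1 in del(8-13)d11lac, 5.45 in del(1-13)d9lac, 12.8 in del(attP-Rel5)d9lac and 3.3 in del(8-13)rXII, against 18.3 in wild-type whole limbs, and of 34.8 in distal and 28.7 in proximal wild-type forelimb. Its only cohesin peak was SMC1 in distal forelimb, at 5.31. Consensus CTCF sites, defined as wild-type whole-limb peaks that overlapped both a distal and a proximal peak, numbered 19 in the domain and 39477 in the genome. Between 2 neighbouring consensus sites of the desert, 52.1 and 570 kb from the start of Shh, 518 kb passed without another. This gap was longer than 98.5% of the 39456 gaps between neighbouring consensus sites of the genome, whose median was 26.4 kb. Peaks per megabase were fewer in the domain than in the genome in all 11 lists, for example 8.12 against 13.3 for CTCF in del(8-13)rXII and 13.1 against 16 for CTCF in wild-type whole limbs.

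Rnf32, a RING finger gene between the desert and Lmbr1, held no peak of any list. The nearest site, a peak of distal CTCF alone at 2.85, was 17.6 kb from its start, and the nearest consensus site 78.8 kb.

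Lmbr1, which encodes a membrane protein and hosts the limb enhancer, held 10 sites. This was more than in any other protein-coding gene of the domain, of which Lmbr1 is the longest at 149 kb. The strongest was the Lmbr1 intron 5 site (29293078 to 29293751), in the intron of 30852 bp that also holds the enhancer. Its CTCF −log10 q was 302 in del(8-13)d11lac, 95.8 in del(1-13)d9lac, 157 in del(attP-Rel5)d9lac and 27.9 in del(8-13)rXII, against 140 in wild-type whole limbs, and it was 289 in distal and 295 in proximal wild-type forelimb. It ranked at percentiles 97.7 to 99.9 of the CTCF lists. Its RAD21 −log10 q was 49.1 in del(8-13)rXII, against 119 in wild-type whole limbs, and 43.4 in wild-type distal forelimb, where SMC1 stood at 25.7. In both whole-limb RAD21 lists this was the strongest cohesin site of the domain.

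On the other side of the enhancer, the Lmbr1 intron 4 site (29335766 to 29336363) was weaker but present in all 11 lists. Its CTCF −log10 q was 85.8 in del(8-13)d11lac, 14.6 in del(1-13)d9lac, 30.8 in del(attP-Rel5)d9lac and 4.26 in del(8-13)rXII, against 21.6 in wild-type whole limbs, and it was 83.9 in distal and 79.7 in proximal wild-type forelimb. Its RAD21 −log10 q was 11.3 in del(8-13)rXII, against 24.8 in wild-type whole limbs, and 15.8 in wild-type distal forelimb, where SMC1 stood at 5.02. The pair of sites around the enhancer, 42.7 kb apart, thus shared a motif strand and a cohesin peak in each cohesin list.

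The limb enhancer itself, annotated by RefSeq as the zone of polarising activity regulatory sequence (29314497 to 29315862), was covered by a weak CTCF site of its own (29314619 to 29314961) and by no cohesin peak. The site's CTCF −log10 q was 12.9 in del(8-13)d11lac, against 3.7 in wild-type whole limbs, and it was 7.78 in distal and 17.1 in proximal wild-type forelimb. It had no CTCF peak in del(1-13)d9lac, del(attP-Rel5)d9lac or del(8-13)rXII. These values sat at percentile 30.8 of the del(8-13)d11lac list, 9.65 of the wild-type whole-limb list, 26.4 of the distal and 47.4 of the proximal list. Within 50 bp of the whole-limb summit no motif lay in full, but the minus-strand match printed above, at 13 bits, was centred 45 bp from it, and 18 and 19 bp from the distal and proximal summits. Absence from an allele's list was not rare at this strength. Among the 1782 consensus sites of the genome within a factor of 1.2 of its wild-type −log10 q, 48.5% had a peak in del(1-13)d9lac, 57.9% in del(attP-Rel5)d9lac and 29.7% in del(8-13)rXII, and 93.2% in del(8-13)d11lac. The absence of cohesin was common as well, since 14.6% of whole-limb CTCF peaks of like −log10 q had a whole-limb RAD21 peak and 3.16% of like distal CTCF peaks had a distal SMC1 peak.

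The other 7 sites in Lmbr1 were each found in a part of the lists. In intron 9, a site at 29274773 to 29275165 had CTCF at 14.7 in del(8-13)d11lac and 7.72 in del(attP-Rel5)d9lac, against none in wild-type whole limbs, and at 11.7 in distal and 10.1 in proximal wild-type forelimb, with RAD21 at 1.31 in wild-type whole limbs. A neighbour at 29275382 to 29275808 had CTCF at 31.7 in del(8-13)d11lac, against 3.22 in wild-type whole limbs, and at 10.4 in distal and 14.8 in proximal wild-type forelimb. A further site of intron 9, at 29270913 to 29271199, had CTCF at 10 in del(8-13)d11lac and 4.5 in wild-type distal forelimb, and RAD21 at 5.29 in wild-type whole limbs, where CTCF had no peak. Wild-type whole-limb CTCF thus had no peak at either intron 9 site with a RAD21 peak. Both RAD21 peaks were weak, at percentiles 0.0608 (29274773 to 29275165) and 27.4 (29270913 to 29271199) of the wild-type whole-limb RAD21 list. In intron 3, CTCF reached 6.9 in del(8-13)d11lac and 6.34 in wild-type distal forelimb (29347955 to 29348336). The remaining 3 were called once each: in proximal forelimb at 2.74 in intron 9 and at 3.1 in intron 5, and in distal forelimb at 1.92 in intron 1. Their low values left no room to tell distal from proximal limb.

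Upstream of Lmbr1, in the noncoding transcript 4632411P08Rik, stood the fourth very strong site of the domain (29389221 to 29389916), 11.2 kb from the start of Lmbr1 and 922 kb from that of Shh. Its CTCF −log10 q was 285 in del(8-13)d11lac, 125 in del(1-13)d9lac, 170 in del(attP-Rel5)d9lac and 17.8 in del(8-13)rXII, against 120 in wild-type whole limbs, and it was 267 in distal and 287 in proximal wild-type forelimb. Its RAD21 −log10 q was 45.1 in del(8-13)rXII, against 109 in wild-type whole limbs, and 49.6 in wild-type distal forelimb, where SMC1 stood at 24.8. All 11 lists had a peak, and its motif strand was opposite to that of both Lmbr1 intron sites. Nearby, 4.58 kb upstream of Lmbr1, a peak of the proximal CTCF list alone reached 12.46 (29382791 to 29383157). Of the 5553 proximal peaks within a factor of 1.2 of it, 89.9% had a distal peak, so that a proximal peak of this strength with no distal partner was uncommon in the genome.

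Nom1, a nucleolar protein gene, held 1 site, a distal CTCF peak at 4.7 in its untranslated region. The site before it (29413051 to 29413436), 21.4 kb from its start, had CTCF at 20.6 in del(8-13)d11lac, 5.18 in del(1-13)d9lac, 10.7 in del(attP-Rel5)d9lac and 1.93 in del(8-13)rXII, against 9 in wild-type whole limbs, and at 36.7 in distal and 37.9 in proximal wild-type forelimb. Its only cohesin peak was distal RAD21, at 3.88.

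Mnx1, a homeobox gene known for its role in motor neurons and pancreas, held no site, and the nearest one (29479062 to 29479730) lay 982 bp upstream of its start. Its CTCF −log10 q was 51 in del(8-13)d11lac, 9.77 in del(1-13)d9lac, 33.4 in del(attP-Rel5)d9lac and 1.98 in del(8-13)rXII, against 15.5 in wild-type whole limbs, and it was 54.3 in distal and 85.1 in proximal wild-type forelimb. No cohesin list had a peak there. The nearest site with cohesin was 65.2 kb from the start of Mnx1, against 75 kb for Rnf32, 21.4 kb for Nom1, 11.2 kb for Lmbr1 and 2.71 kb for Shh.

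The outer sites with a peak in every CTCF list completed the set. Between Cnpy1 and Rbm33 (28293930 to 28294551), CTCF was at 276 in del(8-13)d11lac, 109 in del(1-13)d9lac, 158 in del(attP-Rel5)d9lac and 21.2 in del(8-13)rXII, against 105 in wild-type whole limbs, and at 267 in distal and 292 in proximal wild-type forelimb. RAD21 had no peak there in del(8-13)rXII, against 30.9 in wild-type whole limbs and 8.44 in wild-type distal forelimb, where SMC1 stood at 33.3, its highest value of the domain. In the Rbm33 intron (28388125 to 28388672), CTCF was at 120 in del(8-13)d11lac, 22.5 in del(1-13)d9lac, 60.5 in del(attP-Rel5)d9lac and 9.31 in del(8-13)rXII, against 26.2 in wild-type whole limbs, and at 130 in distal and 124 in proximal wild-type forelimb. This intron site had a peak in all 4 cohesin lists, with RAD21 at 5 in del(8-13)rXII, against 8.54 in wild-type whole limbs, and at 4.33 in wild-type distal forelimb, where SMC1 stood at 3.41. The Ube3c upstream site (29560685 to 29561028), 8.36 kb from the start of the ubiquitin ligase gene Ube3c, had CTCF at 14.3 in del(8-13)d11lac, 6.88 in del(1-13)d9lac, 8.41 in del(attP-Rel5)d9lac and 5.43 in del(8-13)rXII, against 5.29 in wild-type whole limbs, and at 39.5 in distal and 10.4 in proximal wild-type forelimb, with no cohesin. The last, between Ube3c and Dnajb6 (29687522 to 29688328), had CTCF at 142 in del(8-13)d11lac, 31.7 in del(1-13)d9lac, 39.6 in del(attP-Rel5)d9lac and 8.27 in del(8-13)rXII, against 38.7 in wild-type whole limbs, and at 119 in distal and 112 in proximal wild-type forelimb. There RAD21 was at 4.11 in wild-type whole limbs and SMC1 at 8.95 in distal forelimb.

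**Figure D2:**
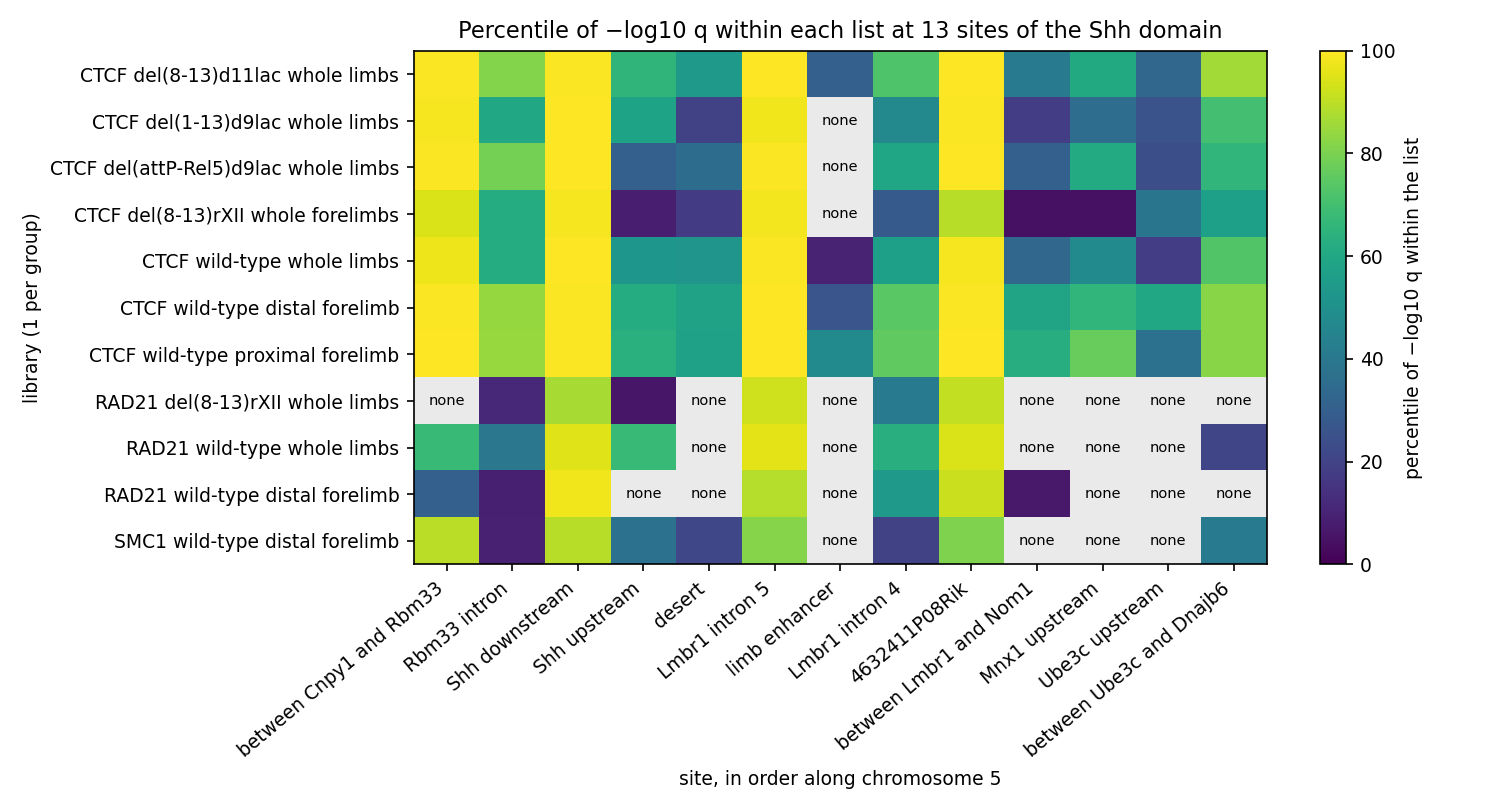
Percentile of −log10 q within each list (colour) at the 12 sites with a peak in all 7 CTCF lists and at the limb enhancer site, by library (rows, deletion alleles above wild type); grey cells marked none had no peak. The sites between Cnpy1 and Rbm33, downstream of Shh, in Lmbr1 intron 5 and in 4632411P08Rik lie between percentiles 89.2 and 99.9 in every CTCF list, while the limb enhancer site is absent from 3 of the deletion alleles and from all 4 cohesin lists.

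Each CTCF list was thus headed by the same 4 CTCF sites, with the site between Ube3c and Dnajb6 and the Rbm33 intron site next, in all 7 lists. The sites at the other end of the range were weak. A peak in 1 list only was found at 26 sites (46.4%, interval 34 to 59.3), against 37.1% of sites in the genome, with −log10 q from 1.49 to 12.46, and 5 of these held a motif. Among them, 12 were of distal CTCF, 6 of proximal CTCF and 3 of del(8-13)d11lac CTCF. A single site had cohesin and no CTCF of any list, a wild-type whole-limb RAD21 peak at 4.52 in an intron of Ube3c (29608550 to 29608776).

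The deletion alleles were compared with wild type over the 19 consensus sites of the domain, which addresses whether CTCF occupancy far from HoxD differs in embryos that carry these deletions. All 12 sites of the full set were kept in every allele by definition, so the differences rest on the other 7 consensus sites. Their wild-type whole-limb −log10 q ran from 3.22 to 11.8, against 5.29 to 164 at the 12. In del(8-13)d11lac all 19 had a peak (100%, Wilson 95% interval 83.2 to 100), against 98.7% of consensus sites in the genome. In del(1-13)d9lac 14 of 19 did (73.7%, interval 51.2 to 88.2), against 87.2% in the genome. In del(attP-Rel5)d9lac 16 did (84.2%, interval 62.4 to 94.5), against 90.4%, and in del(8-13)rXII 12 did (63.2%, interval 41 to 80.9), against 77%. Each interval held the share of the genome, so no difference from it was detectable with 19 sites. In the narrower stretch from Shh to Lmbr1 with 100 kb on each side, del(1-13)d9lac had a peak at 8 of 12 sites (66.7%, interval 39.1 to 86.2), and there the 87.2% of the genome fell just outside. If each site had been kept at the rate of genome sites of like −log10 q, 18.7, 15.5, 16.4 and 13.2 would have been kept in these alleles, in the same order. Intervals cover counting error only, and allele and library cannot be told apart with 1 library each.

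The 7 consensus sites without a peak in at least 1 allele included the limb enhancer site and the neighbour in Lmbr1 intron 9. Both were absent in del(1-13)d9lac, del(attP-Rel5)d9lac and del(8-13)rXII. So was the desert site 52.1 kb from the start of Shh, with CTCF at 7.75 in del(8-13)d11lac, against 4.67 in wild-type whole limbs, and at 7.54 in distal and 1.7 in proximal wild-type forelimb. The site 650 kb from the start of Shh and the one in a Ube3c intron were absent in del(1-13)d9lac and del(8-13)rXII. The sites in Cnpy1 and Rbm33 introns were absent in del(8-13)rXII alone. Of the 7, only the Rbm33 site had a motif within 50 bp of its summit.

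Peaks of an allele that overlapped no wild-type CTCF peak were counted as new. They numbered 3 of 32 in del(8-13)d11lac (9.38%), against 7.08% of that list in the genome. In del(1-13)d9lac it was 1 of 17 (5.88%), against 5.19%, and in del(attP-Rel5)d9lac 1 of 19 (5.26%), against 2.94%. In del(8-13)rXII it was 1 of 13 (7.69%), against 4.62%. Each share was above that of the genome, but rested on 3 peaks or on 1. The one of del(8-13)rXII lay in the desert 86.3 kb from the start of Shh, at a −log10 q of 1.96. None of the 6 RAD21 peaks of del(8-13)rXII was new, against 3.51% of that list.

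RAD21 of del(8-13)rXII had a peak at 6 of the 11 wild-type whole-limb RAD21 peaks of the domain (54.5%, Wilson 95% interval 28 to 78.7), against 45.2% in the genome. The rate of genome RAD21 peaks of like −log10 q gave 5.64 of 11. The 6 were the Rbm33 intron, Shh downstream, Shh upstream, Lmbr1 intron 5, Lmbr1 intron 4 and 4632411P08Rik sites, so both flanks of Shh and both flanks of the limb enhancer kept RAD21. The 5 without a peak were the site between Cnpy1 and Rbm33, both RAD21 sites of Lmbr1 intron 9, the Ube3c intron peak and the site between Ube3c and Dnajb6. At the first of these, wild-type RAD21 stood at 30.9, and 84.7% of the 2602 whole-limb RAD21 peaks of like −log10 q had a peak in del(8-13)rXII. CTCF remained called there in the same allele, at 21.2. The other 4 without a peak had wild-type RAD21 at 1.31 to 5.29. The Rbm33 intron site went the other way: it kept RAD21, as did only 11.3% of the 2929 peaks of like −log10 q. Per the labels, RAD21 was fixed for 10 or 25 minutes, and which library had which time is not stated, so the part of fixation was not tested.

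**Figure D3:**
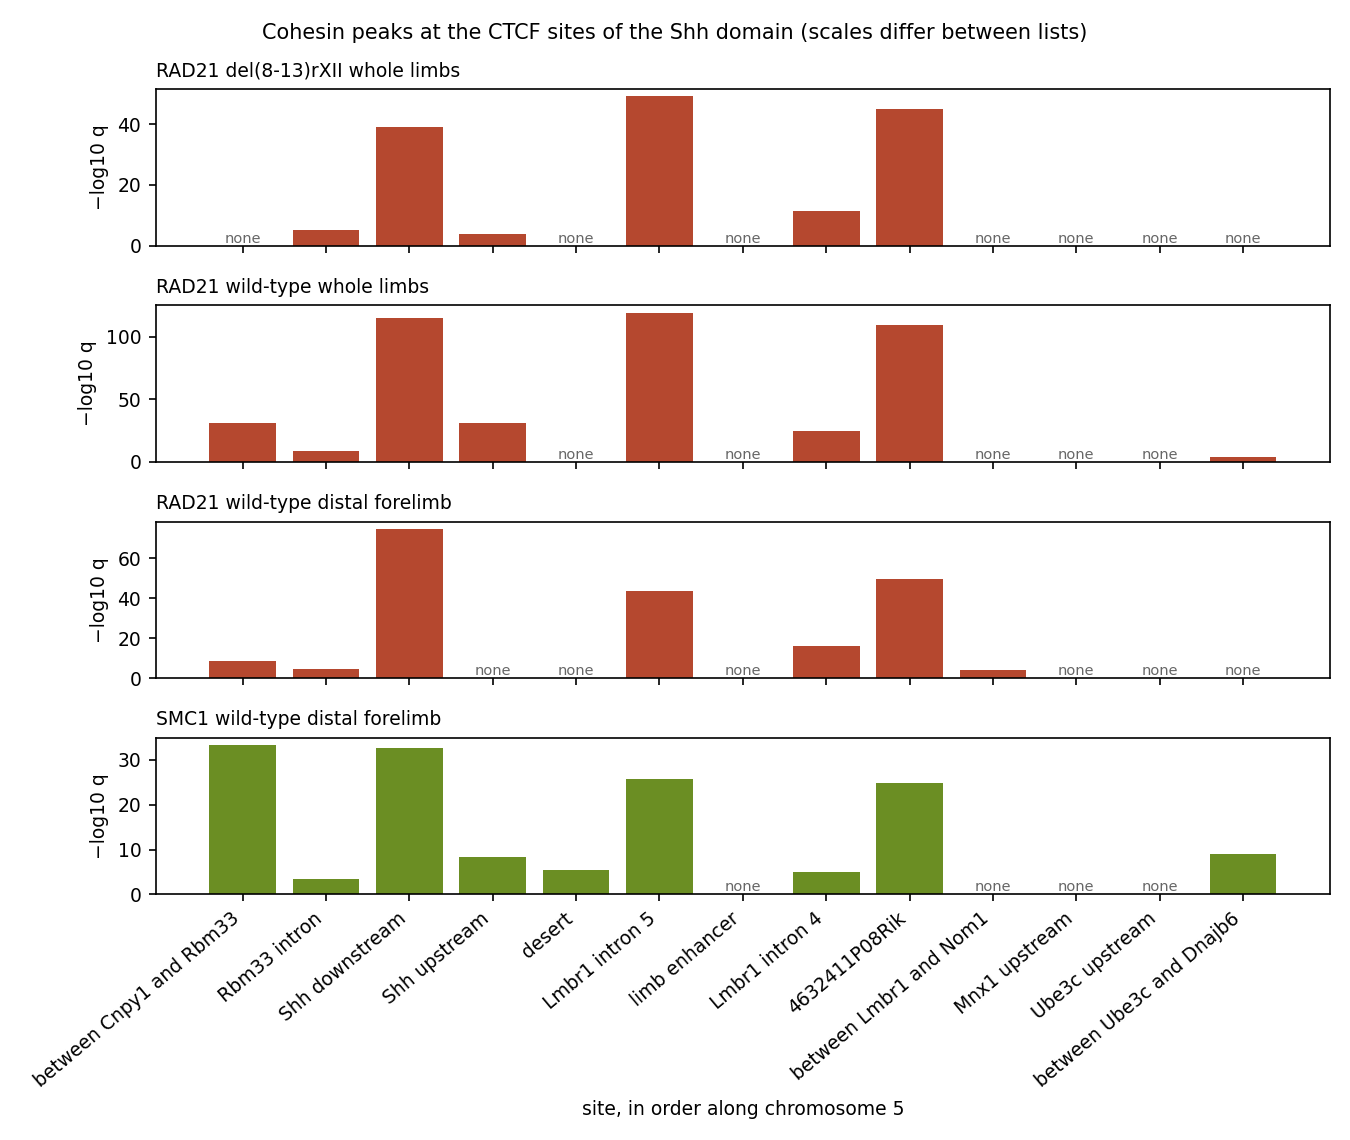
RAD21 and SMC1 −log10 q (bars, from 0) at the same 13 sites, 1 panel per list, with a separate scale for each list. The Shh downstream, Lmbr1 intron 5 and 4632411P08Rik sites are the 3 highest bars in each RAD21 panel, and RAD21 at the site between Cnpy1 and Rbm33 is called in both wild-type lists and not in del(8-13)rXII.

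Of the 12 sites bound in every CTCF list, 10 had a cohesin peak (83.3%, interval 55.2 to 95.3), against 77.1% of the 28570 such sites of the genome. All 4 cohesin lists had a peak at 5 of the 12 (41.7%, interval 19.3 to 68), against 41.4%. The 5 were the Rbm33 intron, Shh downstream, Lmbr1 intron 5, Lmbr1 intron 4 and 4632411P08Rik sites. The Mnx1 upstream and Ube3c upstream sites had none. Among the other 44 sites, 4 had cohesin (9.09%, interval 3.59 to 21.2), against 21.3% in the genome. In wild-type whole limbs 8 of 21 CTCF peaks overlapped RAD21 (38.1%, interval 20.8 to 59.1), against 51.5% in the genome and against 9.6 peaks given by the rate at like −log10 q. In wild-type distal forelimb 7 of 38 CTCF peaks overlapped RAD21 (18.4%, interval 9.22 to 33.4), against 22.8% in the genome. For SMC1 in distal forelimb it was 10 of 38 (26.3%, interval 15 to 42), against 31% in the genome. The counting interval of each of these 3 overlaps held the share of the genome.

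In distal forelimb, RAD21 had 7 peaks in the domain and SMC1 had 10. Of the 7, 6 overlapped SMC1 (85.7%, interval 48.7 to 97.4), against 87.9% in the genome, and the exception was the site between Lmbr1 and Nom1. SMC1 without RAD21 was found at 4 sites, at −log10 q from 5.31 to 8.95: in a Cnpy1 intron, at the Shh upstream and desert sites, and between Ube3c and Dnajb6. Of the 10 SMC1 peaks, 6 thus overlapped RAD21, against 6.21 given by the rate of genome SMC1 peaks of like −log10 q. Cohesin summits at the 12 sites were set against the motif centre, read along the motif strand. The 30 cases were pairs of site and list from 10 sites, so a site could count up to 4 times. The cohesin summit lay downstream in 23 of the 30, by 1 to 267 bp, and upstream in 7, by 7 to 57 bp. No share over the genome was computed for these counts. The median CTCF summit was itself downstream of the motif centre at 9 of these 10 sites. The cohesin summit lay beyond the CTCF median in 17 of the 30 cases, 15 of 21 for RAD21 and 2 of 9 for SMC1. At the Shh downstream site all 4 cohesin summits were downstream, by 14, 25, 26 and 30 bp, and the 7 CTCF summits had a median of 16 bp. At the Shh upstream site SMC1 lay 267 bp downstream and both RAD21 summits upstream of the motif.

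Distal and proximal forelimb shared 24 sites. Of the 38 distal CTCF peaks, 63.2% had a proximal peak (interval 47.3 to 76.6), against 82.6% in the genome. Of the 34 proximal peaks, 70.6% had a distal peak (interval 53.8 to 83.2), against 77.8% in the genome. The distal share was below that of the genome beyond its interval, and the peaks concerned were weak. The 14 unshared distal peaks had −log10 q from 1.49 to 6.89 and the 24 shared ones from 2.43 to 289. At the rate of genome peaks of like −log10 q, 26.3 of 38 would have been shared. With both lists cut at a −log10 q of 10, all 19 distal peaks were shared, against 91.4% in the genome. Of the proximal peaks, 19 of 23 were shared (82.6%, interval 62.9 to 93), against 91.8%. A partner below the cut counted as missing, as at the limb enhancer site, with 17.1 in proximal and 7.78 in distal forelimb. The strongest unshared proximal peaks, in a Ube3c intron and upstream of Lmbr1, stood at percentiles 42.6 and 41.1 of the proximal list, and the strongest unshared distal peak at percentile 23.3 of the distal list. Without the cut the limb enhancer site was shared, at percentile 26.4 of the distal and 47.4 of the proximal list. The libraries are of bulk tissue, so CTCF in the cells that express Shh cannot be told apart from CTCF in the rest of the limb.

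**Figure D4:**
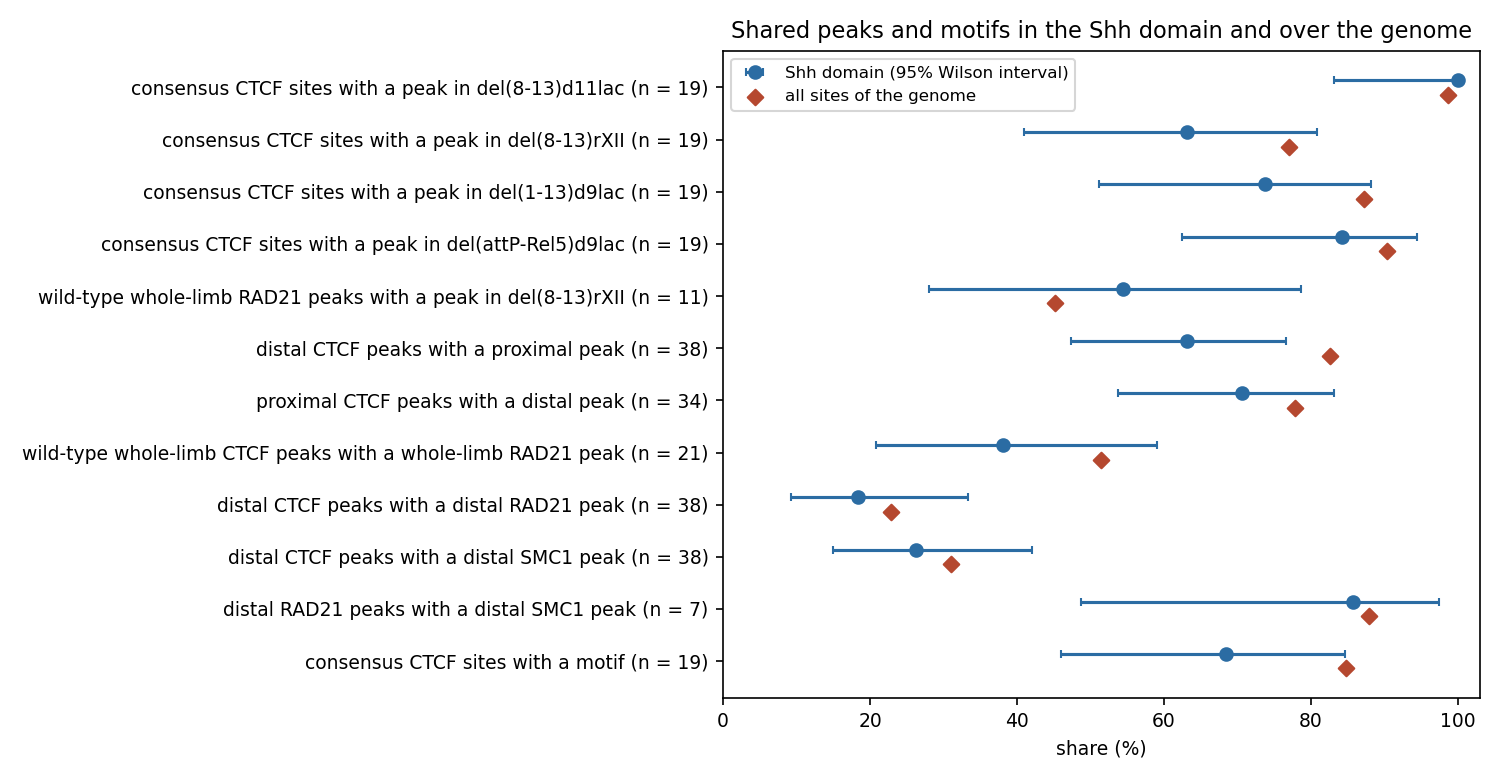
Share in percent of sites or peaks of the Shh domain (circles, with Wilson 95% intervals) and of the whole genome (diamonds) that had the partner peak or the motif named at the left; n is the number in the domain. The share of the genome lies within the interval of the domain in each comparison except distal CTCF peaks with a proximal peak, 63.2% against 82.6%, and consensus sites with a motif, 68.4% against 84.8%; neither exception held at every setting.

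Consensus sites with a motif within 50 bp numbered 13 of 19 (68.4%, interval 46 to 84.6), against 84.8% in the genome. This count depended on the width searched: within 100 bp, where 10.5% of control windows passed, all 19 had one (interval 83.2 to 100), against 91.6% in the genome. The 6 sites gained included the limb enhancer site and the neighbour in Lmbr1 intron 9, at 13 and 14.5 bits. At the score that 1% of control windows passed, the share was 68.4%, against 71.5% in the genome, which the interval holds.

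Beyond Shh, the Hedgehog pathway was read from a list of 18 genes of ligands, release and uptake factors, receptors and transcriptional effectors. A wild-type whole-limb CTCF peak lay within 10 kb of the start of 13 of them (72.2%), against 49.5% of 21911 protein-coding genes, and a RAD21 peak near 15 (83.3%), against 38.7%. Shh, the receptor gene Ptch1 and the effector gene Gli1 had both, and Smo, which encodes the signal transducer of the pathway, had neither. These shares were set side by side without a test, and of the Shh domain they include the site upstream of Shh alone.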

How the data were processed

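Peak lists of CTCF (7), RAD21 (3) and SMC1 (1) were analysed, 1 library per group; the 2 H3K27ac samples were not analysed here. Per the submitters' processing notes, the authors used cutadapt, Bowtie2 and MACS2, without stated versions, on build mm10. The deposited narrowPeak files hold, per summit, a score (10 times −log10 q, cut to a whole number, as found in the deposited values), the fold enrichment as a ratio, −log10 p and −log10 q, all as deposited by the authors. The lists contain called peaks alone, cut at about q of 0.05, so depth is unknown and weak binding can be missing from a list. Rows of the same region were merged, keeping the strongest summit, and an overlap of 1 bp or more counted as shared.

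The motif matrix was learnt from windows of 50 bp around summits, with controls 2000 bp away; the learning and the overlap steps were tested on simulated data. Peaks of like strength are those of the genome within a factor of 1.2 in −log10 q. Annotation was GENCODE M21, elements were from RefSeq, and coordinates are 1-based on GRCm38.p6. Python 3.11.15, numpy 2.4.6, pandas 2.3.3, scipy 1.17.1 and pysam 0.24.0 were used. With 1 library per group no test was possible, and Wilson 95% intervals cover counting error only. Sites named with values were those in all 7 CTCF lists, within 10 kb of the 5 member genes or in the enhancer's intron; a few others were picked with their values in view. The members and lists were chosen with earlier results of these data known. Alternatives were a −log10 q of at least 10, coverage of 50%, summits within 200 bp, lists of equal length, a narrower interval, all whole-limb peaks, and a motif within 100 bp.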

Additional observations from a re-analysis of the deposited data

How the results depend on the processing

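Of 88 alternative values over 18 results, 66 moved by less than their counting error or factor of 1.5. No value moved with coverage of at least 50%, summits within 200 bp, every whole-limb peak in place of the consensus, a stricter motif score or without the del(8-13)rXII list. With lists of equal length, consensus sites with a peak were 100% in del(1-13)d9lac (genome 94.5%), 100% in del(attP-Rel5)d9lac (95.8%) and 84.6% in del(8-13)rXII (89.4%), RAD21 peaks kept in del(8-13)rXII were 83.3% (86.8%), distal CTCF peaks with a proximal peak 87.5% (93.3%) and proximal with a distal peak 93.3% (93.2%), distal CTCF with RAD21 43.8% (41.4%) and with SMC1 62.5% (56.5%); new CTCF peaks were 1 in del(8-13)d11lac, 0 in del(1-13)d9lac and, for del(attP-Rel5)d9lac, 2. With a −log10 q of at least 10, shares were 100% in del(attP-Rel5)d9lac, 36.4% in del(8-13)rXII and 100% for distal with proximal, against 93.6%, 44.1% and 91.4% in the genome; new peaks were 0 in del(1-13)d9lac, del(attP-Rel5)d9lac and del(8-13)rXII; and 4 sites stayed in all 7 CTCF lists, an alternative chosen after seeing the data. From Shh to Lmbr1 with 100 kb on each side, new peaks were 1 in del(8-13)d11lac, 0 in del(1-13)d9lac and, for del(attP-Rel5)d9lac, 0. A motif within 100 bp was found at 100% of consensus sites, against 91.6% in the genome. The stricter q and equal lengths leave fewer and stronger peaks by construction. No paired analysis was possible because each group had 1 library. Weak sites are limited by the unknown depth of each list, and no absence shows that a protein is not bound.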
